A study of Homo sapiens with 24 samples.

Results

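HEK293 is a human embryonic kidney cell line, and MOTS-c is a peptide of 16 residues whose reading frame lies in the mitochondrial small ribosomal RNA gene. The TNF and NF-kB feedback genes described here are TNF, NFKBIA, NFKBIE, TNFAIP3, NFKB1, NFKB2, RELB, BIRC3, IL32 and ICAM1, taken with every probe of the bead array that the probe annotation assigns to them. Of these 10 symbols, 9 had a probe and BIRC3, an inhibitor of cell death, had none in the annotation used here. The 9 genes had 12 of the array's 47323 probes. Of the 12 probes, 11 passed the detection filter and 9 stood for their genes among the 13283 genes tested. RNA came from 4 groups of 6 samples: cells given 10 µM MOTS-c for 72 h, cells given water for 72 h, cells given 10 µM MOTS-c for 4 h and cells given water for 4 h. All groups are the same cell line in phenol-free medium with serum, and the sources used here do not say whether replicates were separate cultures, so the spread between them may be technical. The genes were proposed as a group after their measured log2 difference between treated and control cells at 72 h had been seen, and are counted here as selected on it. That difference is therefore given as a description without p-values, and so is its difference from the effect at 4 h.

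NF-kB is a family of dimeric transcription factors held inactive in the cytoplasm by IkB proteins. When TNF or interleukin-1 binds its receptor, a ubiquitin-based receptor complex activates the IkB kinases, IkB is degraded and the dimers enter the nucleus. Many of the genes they induce restrain the same pathway, among them the IkB protein gene NFKBIA and the ubiquitin-editing enzyme gene TNFAIP3. NFKB2 and RELB encode the subunits of the slower non-canonical branch.

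Promoters of 4 genes that were lower with MOTS-c at 72 h and held a match to the NF-kB consensus decamer are shown, NFKBIA, TNFAIP3, NFKB2 and IL32. Beside them are TNF, which was also lower, and ICAM1, which was not called, and neither window held a match. NFKB1, also lower and with a match, is not shown. The choice used the 72 h values, so it says nothing about whether matches go with a lower level. The decamer was GGGRNWYYCC, where R is A or G, N any base, W A or T and Y C or T. No mismatch was allowed, so a window without a match can still hold a site that departs from this pattern. Sequences are from RefSeq (GRCh38.p14), 250 bases before to 50 after an annotated transcription start, 5′ to 3′ on the gene's strand. The windows are chr6:31575315-31575614 on the plus strand for TNF, chr14:35404700-35404999 on the minus strand for NFKBIA, chr6:137867009-137867308 on the plus strand for TNFAIP3, chr10:102394328-102394627 on the plus strand for NFKB2 (1 of its 3 starts), chr16:3065153-3065452 on the plus strand for IL32 (1 of its 2 starts) and chr19:10270870-10271169 on the plus strand for ICAM1. Capitals mark matches on either strand, and matches that overlap form 1 longer run.
TNF: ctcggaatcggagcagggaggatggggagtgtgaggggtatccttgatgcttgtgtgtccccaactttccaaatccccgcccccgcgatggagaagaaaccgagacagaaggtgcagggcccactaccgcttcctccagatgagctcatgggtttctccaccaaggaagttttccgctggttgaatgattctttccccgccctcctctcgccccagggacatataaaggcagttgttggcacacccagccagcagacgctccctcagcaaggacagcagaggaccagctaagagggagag
NFKBIA: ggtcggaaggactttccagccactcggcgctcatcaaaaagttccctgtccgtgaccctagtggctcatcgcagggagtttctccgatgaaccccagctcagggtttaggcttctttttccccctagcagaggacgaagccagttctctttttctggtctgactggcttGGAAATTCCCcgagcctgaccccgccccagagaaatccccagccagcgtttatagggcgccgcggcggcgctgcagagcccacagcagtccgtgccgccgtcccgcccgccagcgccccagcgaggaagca
TNFAIP3: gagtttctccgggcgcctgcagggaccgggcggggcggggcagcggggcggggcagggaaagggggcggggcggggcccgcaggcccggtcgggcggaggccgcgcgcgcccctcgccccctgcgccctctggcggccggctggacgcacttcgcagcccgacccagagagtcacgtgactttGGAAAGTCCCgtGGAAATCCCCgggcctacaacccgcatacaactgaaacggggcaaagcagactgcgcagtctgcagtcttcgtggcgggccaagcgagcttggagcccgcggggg
NFKB2: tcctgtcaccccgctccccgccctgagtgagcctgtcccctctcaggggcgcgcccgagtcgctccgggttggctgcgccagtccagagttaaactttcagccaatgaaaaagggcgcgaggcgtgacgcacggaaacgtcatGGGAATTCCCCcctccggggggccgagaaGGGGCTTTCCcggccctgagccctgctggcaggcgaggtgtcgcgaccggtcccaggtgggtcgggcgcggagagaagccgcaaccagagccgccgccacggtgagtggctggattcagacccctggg
IL32: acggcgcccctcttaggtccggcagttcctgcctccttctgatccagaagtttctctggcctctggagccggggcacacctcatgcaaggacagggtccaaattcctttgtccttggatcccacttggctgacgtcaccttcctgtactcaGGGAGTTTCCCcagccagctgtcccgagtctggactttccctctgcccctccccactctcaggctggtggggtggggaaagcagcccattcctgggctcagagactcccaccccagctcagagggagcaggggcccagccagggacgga
ICAM1: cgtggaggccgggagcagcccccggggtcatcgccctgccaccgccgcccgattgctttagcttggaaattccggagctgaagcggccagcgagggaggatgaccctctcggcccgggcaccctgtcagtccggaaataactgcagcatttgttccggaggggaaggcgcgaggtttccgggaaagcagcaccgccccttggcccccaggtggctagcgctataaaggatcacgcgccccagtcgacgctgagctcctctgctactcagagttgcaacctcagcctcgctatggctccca

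Of the 10 symbols, 8 matched the promoter table, all but NFKBIE and RELB. A match lay in 7 of their 12 windows and in 6 of the 8 genes, whereas 5.91% of all 35116 windows and 7.09% of all 27305 genes held one. The 6 include BIRC3, which had no probe. The genes were put together as NF-kB pathway genes, so the higher share is no evidence on the 72 h difference. The NFKBIA match ran from base -81 to -72 relative to the start. TNFAIP3 held a match from -67 to -58 and another from -55 to -46. The first of the 2 NFKB1 windows held a match from -49 to -40. In the NFKB2 window shown, overlapping matches began at -107 and -106 and a further one at -78, and the IL32 window held overlapping matches that began at -99 and -98. A match is a string of letters in a window, and binding was not measured.

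**Figure D1:**
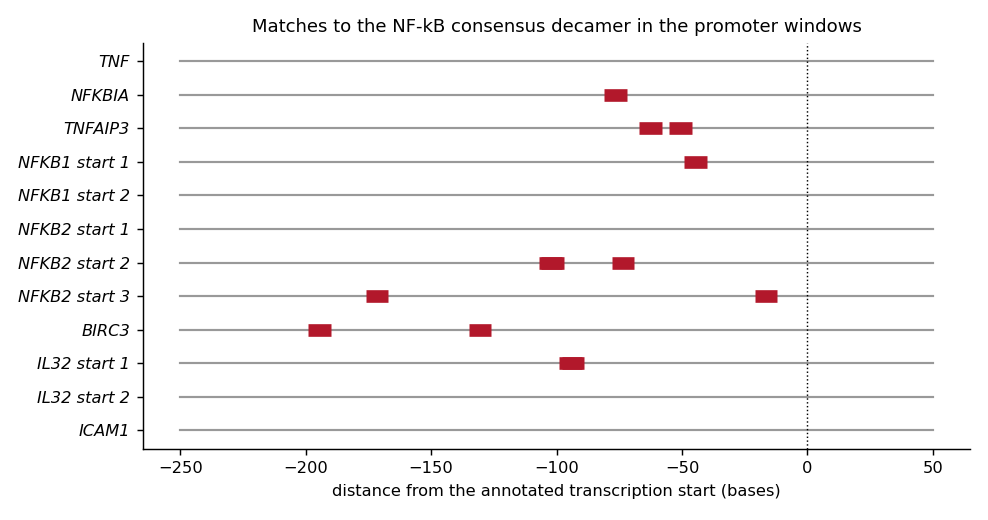
Positions of matches to the NF-kB consensus decamer (red blocks) in 12 promoter windows of 8 genes, with distance in bases from the annotated transcription start on the x axis and 1 line per window. Matches lie in 7 windows, and the windows of TNF and ICAM1 have none.

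Across the 24 arrays, mean probe intensity ranged from 399.2 to 629.5 and between 20719 and 23405 probes were detected at a detection p under 0.05. The cell line's epithelial and neuronal genes KRT8, KRT18, VIM, NEFL, NEFM, EPCAM and CDH2 were detected on all 24 arrays, and the renal transcription factor gene PAX2 on 8. At 72 h, the neurofilament genes NEFM and NEFL were lower with MOTS-c, at log2 differences of -1.01 (SE 0.060) and -0.32 (SE 0.090), VIM was higher at 0.21 (SE 0.056), and the other 5 of these 8 were not called. Leukocytes are a main source of TNF in tissues. Of 10 leukocyte markers, 6 were measured, the T cell receptor subunit CD3E and the adaptor TYROBP were detected on 0 arrays, and the pan-leukocyte gene PTPRC was detected on at most 3 by any of its 4 probes. The summed linear level of the 6 measured markers ran from 2870 to 3120 in cells given MOTS-c for 72 h, against 2410 to 2630 in 72 h controls, and from 2510 to 3040 in cells given MOTS-c for 4 h, against 2740 to 3150 in 4 h controls. At 72 h, LCP1 was called higher with MOTS-c, at a log2 difference of 0.60 (SE 0.056), and CD14 and CD74 lower, at -0.76 (SE 0.083) and -0.53 (SE 0.13). Of 5 endothelial markers, VWF alone was measured, detected on 0 of 6 treated and 6 of 6 control arrays at 72 h and on 0 of 12 at 4 h, while PECAM1, CDH5 and TEK were detected on 0 arrays and KDR on at most 3. The part of these markers in the results was not tested. The arrays measure RNA in bulk, so fewer expressing cells and less RNA per cell cannot be told apart.

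At 72 h, 7 of the 9 measured genes were lower in cells given MOTS-c and 0 were higher, at an adjusted p under 0.05 in a limma fit across all genes. Over all 13283 genes, 22.9% were called lower and 22.1% higher. Nothing is read from this count, since this contrast chose the genes. The median log2 difference was -0.91 over the 9 genes and 0.0062 over all genes. For each of the 7, the 6 treated arrays all lay below the 6 control arrays, which belongs to the same description. The share of all genes with groups so separated is not given here, for this or the other contrasts. NFKBIE and ICAM1 were not called, and their groups overlapped.

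TNF, the cytokine that starts the pathway and is itself an NF-kB target, was read by 1 probe. Its normalized log2 level was 4.87 at the lowest, 5.17 at the median and 5.44 at the highest over the arrays of cells given MOTS-c for 72 h, against 6.98, 7.22 and 7.51 in 72 h controls. It was detected on 1 of 6 treated arrays and on 6 of 6 control arrays at that time. The levels were 4.66, 4.70 and 4.74 with MOTS-c at 4 h and 4.68, 4.71 and 4.81 in 4 h controls, and TNF was detected on 0 of those 12 arrays. Only the 72 h control arrays were thus all above background, with treated arrays close to the level of undetected probes. The difference at 72 h was -2.07 (SE 0.081, n = 6 per group), a 4.21-fold lower level, and treated levels near background can understate it. In non-normalized units, mean intensity was 61.2 ± 10.5 with MOTS-c and 170.9 ± 24.9 in controls at 72 h (SD, n = 6 each). Without background correction the log2 difference was -1.30.

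Among the inhibitors, NFKBIA, which encodes the IkB protein that NF-kB resynthesizes after each round of activation, was strongly expressed throughout. Its log2 level had a lowest, median and highest value of 10.53, 10.62 and 10.69 with MOTS-c at 72 h, against 11.40, 11.66 and 11.99 in 72 h controls. At 4 h the values were 10.35, 10.56 and 10.72 with MOTS-c and 10.37, 10.50 and 10.68 in controls. The 72 h controls stood above every other array, and the other 3 groups overlapped. At 72 h NFKBIA differed by -1.05 (SE 0.084), or 2.07-fold lower.

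TNFAIP3, whose enzyme removes activating ubiquitin chains from the receptor complex, had log2 levels of 7.12, 7.33 and 7.48 (lowest, median and highest) with MOTS-c at 72 h, against 8.24, 8.31 and 8.47 in 72 h controls. At 4 h they were 6.14, 6.33 and 6.50 with MOTS-c and 5.74, 6.19 and 6.63 in controls. The order of the groups was 72 h controls, then 72 h treated cells, then the 4 h groups, which overlapped each other only. At 72 h TNFAIP3 differed by -1.03 (SE 0.10), or 2.04-fold lower. NFKBIE, a further IkB protein gene, did not follow this order. It was at 7.76, 7.82 and 7.91 with MOTS-c at 72 h, against 7.63, 7.72 and 7.90 in 72 h controls, and at 7.75, 7.92 and 7.99 with MOTS-c at 4 h, against 7.91, 8.10 and 8.17 in 4 h controls. Its highest mean was in 4 h controls and its lowest in 72 h controls. The log2 difference at 72 h was 0.11 (SE 0.061) and was not called.

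Among the subunits, RELB, the partner of the NFKB2 product, spanned the widest range. Its log2 levels were 6.91, 7.10 and 7.50 with MOTS-c at 72 h, against 7.86, 8.03 and 8.26 in 72 h controls, and 5.62, 5.79 and 6.02 with MOTS-c at 4 h, against 5.51, 5.68 and 5.83 in 4 h controls. The 72 h groups were apart from each other and from both 4 h groups, which overlapped. RELB differed at 72 h by -0.91 (SE 0.094), or 1.88-fold lower.

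NFKB2 had 3 probes. Its probe ILMN_1799062, which stood for the gene, gave log2 levels of 6.93, 7.21 and 7.35 with MOTS-c at 72 h, against 7.65, 7.88 and 7.98 in 72 h controls, and 5.96, 6.13 and 6.84 with MOTS-c at 4 h, against 5.94, 6.24 and 6.58 in 4 h controls. The difference at 72 h was -0.65 (SE 0.12). The probe ILMN_2390859 gave the same order, with a difference of -0.79 (SE 0.097). The probe ILMN_2247868 was detected on 0 arrays of any group, with group mean intensities between 40.8 and 49.5, and was not tested. NFKB1, which encodes the precursor of a canonical subunit, moved least of the called genes. It was at 10.07, 10.19 and 10.22 with MOTS-c at 72 h, against 10.39, 10.43 and 10.56 in 72 h controls, and at 10.19, 10.29 and 10.42 with MOTS-c at 4 h, against 10.37, 10.39 and 10.53 in 4 h controls. The difference at 72 h was -0.28 (SE 0.052), and the call ended under median scaling, where the difference was -0.14 (SE 0.099).

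Among the targets, the cytokine gene IL32 had 2 probes that both passed the filter. Its probe ILMN_2368530, which stood for the gene, gave log2 levels of 8.03, 8.33 and 8.51 with MOTS-c at 72 h, against 9.11, 9.43 and 9.59 in 72 h controls, and 5.77, 6.19 and 6.59 with MOTS-c at 4 h, against 5.82, 5.96 and 6.22 in 4 h controls. The groups at 72 h were apart from each other and from the 4 h groups. For IL32 this was a difference of -1.10 (SE 0.11), or 2.14-fold lower, and the probe ILMN_1778010 gave -1.12 (SE 0.093).

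ICAM1, an adhesion molecule that leukocytes bind, lay near background. It was detected on 4 of 6 arrays with MOTS-c at 72 h, on 4 of 6 in 72 h controls, on 1 of 6 with MOTS-c at 4 h and on 1 of 6 in 4 h controls. Its log2 levels were 5.16, 5.43 and 5.46 with MOTS-c at 72 h, against 5.24, 5.44 and 5.87 in 72 h controls, and 4.96, 5.24 and 5.53 with MOTS-c at 4 h, against 4.95, 5.20 and 5.70 in 4 h controls. All groups overlapped, and the difference at 72 h was -0.12 (SE 0.11). A low signal limits what could be seen for this gene.

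**Figure D2:**
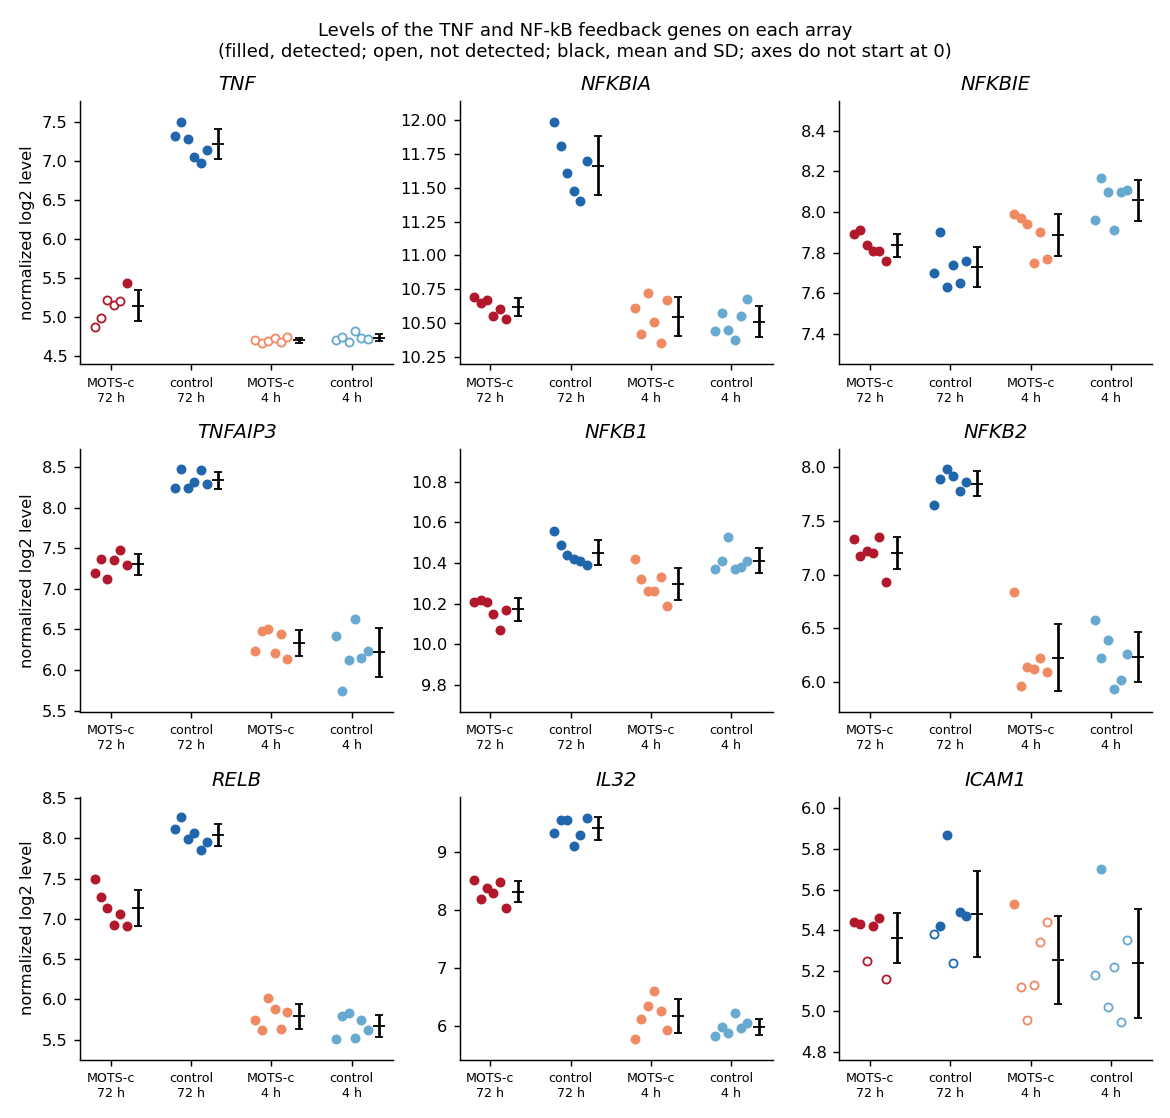
Normalized log2 level (y axis, not starting at 0) of 9 genes on each of 24 arrays, by group, with 1 probe per gene, filled points where the probe was detected, open points where it was not, and black marks for the mean and SD (n = 6). The 72 h control arrays lie above the 72 h MOTS-c arrays without overlap for TNF, NFKBIA, TNFAIP3, NFKB1, NFKB2, RELB and IL32, and overlap them for NFKBIE and ICAM1.

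The comparison at 4 h asks whether these genes differed soon after the peptide was added. It uses none of the 72 h arrays for the group means. Of the 9 genes, 0 were called in limma's test, and over all genes 0.00753% were called, 1 of 13283. At an unadjusted p under 0.05 there were 2 of the 9 and 1567 of 13283. These 2 were NFKBIE at a log2 difference of -0.17 (SE 0.061, limma adjusted p = 0.275), lower than the control mean on 6 of 6 treated arrays, and NFKB1 at -0.11 (SE 0.052, limma adjusted p = 0.388), lower on 5 of 6. NFKBIA differed by 0.04 (SE 0.084, limma adjusted p = 0.902) and TNFAIP3 by 0.12 (SE 0.10, limma adjusted p = 0.693). RELB was at 0.12 (SE 0.094) and NFKB2 at -0.01 (SE 0.12). IL32 was at 0.19 (SE 0.11) by its main probe and at -0.09 (SE 0.093) by the other, which was detected on 0 arrays at that time. Treated and control arrays overlapped for all 9. The 95% confidence intervals of the 9 differences ran from -0.30 at the lowest, for NFKBIE, to 0.42 at the highest, for IL32, so larger differences in log2 level lay outside them, and TNF and ICAM1 were at or near background.

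Set against that at 4 h, the effect of MOTS-c at 72 h was lower for 6 of the 9 genes and higher for 1, where 17.4% of all genes were called lower and 16.7% higher. This difference contains the 72 h contrast and is likewise a description. IL32 had a difference between the effects of -1.28 (SE 0.16), TNFAIP3 of -1.15 (SE 0.15), NFKBIA of -1.09 (SE 0.12), RELB of -1.03 (SE 0.13) and NFKB2 of -0.64 (SE 0.16). TNF was also called, with no size given here because it was not detected at 4 h. NFKBIE was the gene with a higher effect at 72 h, at 0.28 (SE 0.086).

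**Figure D3:**
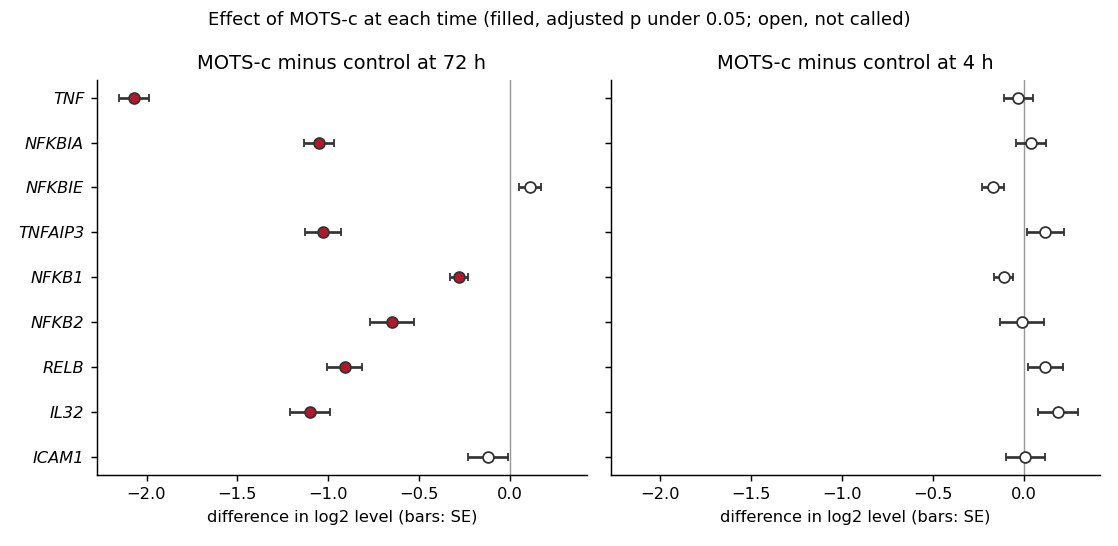
Difference in log2 level between MOTS-c and control cells (x axis, bars are SE, n = 6 per group) for 9 genes at 72 h (left) and 4 h (right), with filled points for an adjusted p under 0.05. At 72 h the differences run from -2.07 for TNF to 0.11 for NFKBIE with 7 filled points, and at 4 h from -0.17 to 0.19 with 0 filled points.

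The comparison of 72 h with 4 h shows how the genes changed with time in culture, with and without the peptide. These contrasts share their 72 h arrays with the contrast that chose the genes. Their counts and p-values are therefore a description and no separate evidence about these genes. In cells given MOTS-c, 5 of the 9 genes were higher at 72 h than at 4 h and 0 were lower, where 19.9% of all genes were called higher and 18.2% lower. In control cells, 6 of the 9 were higher at 72 h and 1 was lower, where 31.9% of all genes were called higher and 30.7% lower. The median log2 difference over the 9 genes was 0.45 in treated cells and 1.61 in control cells, against medians over all genes of 0.012 and 0.0023. The 0.45 is the fitted value of TNF, which was detected on 1 of those 12 arrays, and the median of the other 8 genes was 0.54 in treated cells and 1.39 in control cells.

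IL32 had the largest fitted rise of the 9 with and without the peptide. It rose by 2.14 (SE 0.11, limma adjusted p = 9.98e-14) in MOTS-c cells and by 3.43 (SE 0.11, limma adjusted p = 6.98e-19) in control cells, a 10.8-fold rise. Its other probe, not detected at 4 h, was at least 1.52-fold higher at 72 h in MOTS-c cells and at least 3.29-fold higher in control cells. RELB rose by 1.34 (SE 0.094, limma adjusted p = 2.2e-11) in MOTS-c cells and by 2.37 (SE 0.094, limma adjusted p = 2.64e-17) in control cells. TNFAIP3 rose by 0.97 (SE 0.10, limma adjusted p = 3.91e-08) in MOTS-c cells and by 2.12 (SE 0.10, limma adjusted p = 2.09e-15) in control cells. For these 3 genes every array at 72 h lay above every array at 4 h, in treated and in control cells alike. The sizes depended on the processing. Under alternative settings, the rises in control cells were as low as 2.64 for IL32, 1.61 for RELB and 1.54 for TNFAIP3. In MOTS-c cells they were as low as 1.55, 0.83 and 0.65 in that order.

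NFKB2 rose by 0.97 (SE 0.12, limma adjusted p = 2.62e-07) in MOTS-c cells and by 1.61 (SE 0.12, limma adjusted p = 4.66e-12) in control cells. Without background correction the rises in MOTS-c cells were 0.63 for NFKB2 and 0.83 for RELB. NFKBIA differed by 0.07 (SE 0.084, limma adjusted p = 0.553) in MOTS-c cells, with overlapping arrays, and rose by 1.16 (SE 0.084, limma adjusted p = 5.45e-12) in control cells. TNF was at least 3.41-fold higher at 72 h than at 4 h in control cells. It was detected on 6 of 6 control arrays at 72 h and passed the detection filter through them, so no p-value is given. In MOTS-c cells TNF was called too, but it was detected on 1 of 6 arrays at 72 h and on 0 at 4 h. No fold or p-value is given there. TNF is among the genes counted as higher in both treated and control cells.

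NFKBIE went the other way. It differed by -0.05 (SE 0.061, limma adjusted p = 0.526) in MOTS-c cells and fell by 0.33 (SE 0.061, limma adjusted p = 3.68e-05) in control cells. NFKB1 was not called in either, at -0.12 (SE 0.052, limma adjusted p = 0.0606) in MOTS-c cells and 0.04 (SE 0.052, limma adjusted p = 0.519) in control cells. In MOTS-c cells it was called without 4 h treated replicate 6, at -0.15 (SE 0.053, limma adjusted p = 0.0339), and under 3 other settings. ICAM1 was not called, at 0.11 (SE 0.11, limma adjusted p = 0.476) in MOTS-c cells and 0.24 (SE 0.11, limma adjusted p = 0.0693) in control cells. In control cells it was called without 4 h control replicate 2, at 0.33 (SE 0.11, limma adjusted p = 0.00849). Leaving out 72 h control replicate 4 gave ICAM1 a called difference of 0.29 (SE 0.12, limma adjusted p = 0.0376).

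For the genes that rose in control cells, the shortfall with MOTS-c at 72 h was set against that rise. Both quantities use the 72 h control arrays, and the shares are given as a description. They have no SE, and differences in share between genes were not tested. On the log2 scale, the shortfall of treated cells at 72 h was 90.9% of the control rise for NFKBIA, so that treated cells stood near the 4 h level. It was 48.6% for TNFAIP3, 40.2% and 50.3% for the NFKB2 probes, 38.3% for RELB, and 32% and 53.4% for the IL32 probes. TNF gave 83.2%, with its 4 h level and most 72 h treated arrays at background. The IL32 probe with 53.4% was not detected at 4 h.

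**Figure D4:**
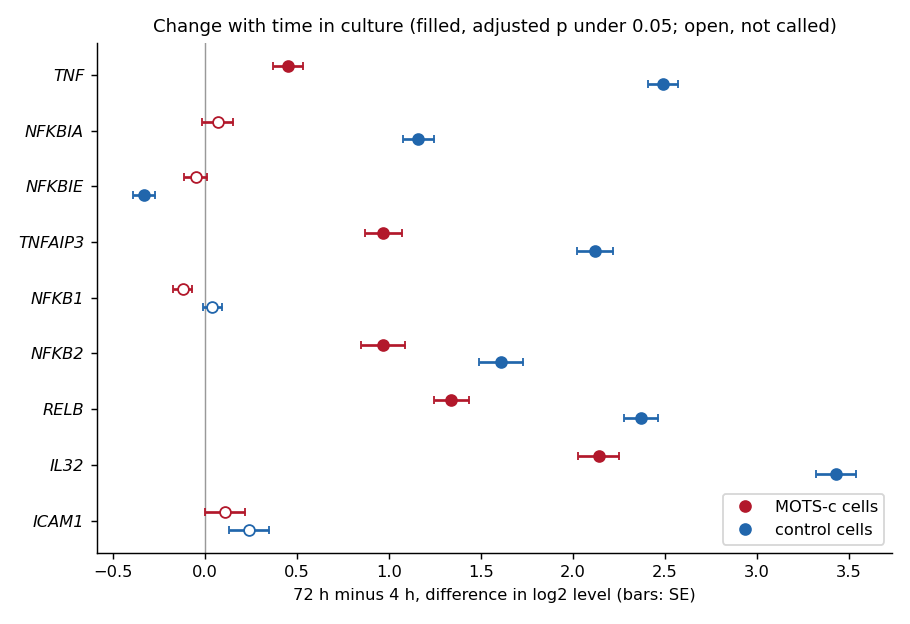
Difference in log2 level between 72 h and 4 h (x axis, bars are SE, n = 6 per group) for 9 genes in MOTS-c cells (red, upper point of each pair) and in control cells (blue), with filled points for an adjusted p under 0.05. Control cells have the larger difference for the 6 genes that were called higher in them, from 1.16 for NFKBIA to 3.43 for IL32. The TNF points are fitted values on levels not detected at 4 h.

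The rest of the pathway at 72 h was described with lists of genes by role, set against the 22.9% of all genes called lower and the 22.1% called higher. The lists were chosen with earlier results of these data known. Their counts are therefore a description, and nothing is read from them. Of 19 measured TNF-family ligands, receptors and interleukin-1 genes, 6 were lower with MOTS-c and 2 were higher, with a median log2 difference of -0.13. The 2, named after their values were seen, were the death receptor gene TNFRSF10B at 0.24 (SE 0.065) and the interleukin-1 co-receptor gene IL1RAP at 0.36 (SE 0.12). IL1A, which encodes the cytokine interleukin-1 alpha, was detected on 0 of 6 treated and 6 of 6 control arrays and was at least 1.43-fold lower. CD70, the ligand of the receptor CD27, averaged 8.68 with MOTS-c and 9.38 in controls, a difference of -0.70 (SE 0.10). NGFR, a neurotrophin receptor of the TNF receptor family, was detected on 0 of 6 treated and 6 of 6 control arrays and was at least 1.11-fold lower. IL1A and NGFR passed the detection filter only through the 72 h control arrays, so the filter favoured a lower call for both.

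Of 25 measured genes of the receptor complex and the IkB kinases, 4 were lower and 7 were higher, with a median of 0.09, and these counts were near those shares of all genes. TRAF6, a ubiquitin ligase of interleukin-1 signalling, averaged 6.85 with MOTS-c and 6.52 in controls, a difference of 0.33 (SE 0.063), and 0.64 at its other probe. MAP3K7, the kinase that activates the IkB kinases, differed by 0.33 (SE 0.067), and by 0.30 at its other probe. FADD, the adaptor of death receptors, differed by -0.37 (SE 0.077). The other lower genes, named after their values were seen, were TRADD, RIPK2 and SHARPIN, with differences between -0.36 and -0.26.

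Of the 7 other subunits and IkB proteins, 3 were lower and 1 was higher, with a median of -0.10. RELA, the main activating subunit, averaged 7.39 with MOTS-c and 7.81 in controls, a difference of -0.42 (SE 0.10). The nuclear IkB proteins BCL3 and NFKBIZ differed by -0.31 (SE 0.075) and -0.49 (SE 0.12). The gene called higher was NFKBIB, named after its value was seen, at 0.32 (SE 0.082). Of 17 other negative regulators, 6 were lower and 4 were higher, with a median of 0.02. ZC3H12A, a ribonuclease that degrades inflammatory messenger RNAs, averaged 5.67 with MOTS-c and 6.36 in controls, a difference of -0.69 (SE 0.089). TAX1BP1, an adaptor of the TNFAIP3 enzyme, differed by 0.43 (SE 0.057), and by 0.45 at its other probe, and N4BP1 by 0.44 (SE 0.093). The other higher genes, named after their values were seen, were OTULIN at 0.20 (SE 0.061) and ITCH at 0.33 (SE 0.079), which encode a deubiquitinase and a ubiquitin ligase.

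Of 27 other target genes, 18 were lower with MOTS-c and 1 was higher, with a median of -0.33. Among the 18, KYNU and IL23A, named after their values were seen, would not have passed the detection filter without the 72 h control arrays. The filter thus favoured a lower call for them. The chemokine gene CXCL10 averaged 5.74 with MOTS-c and 7.47 in controls, a difference of -1.73 (SE 0.083). MMP9, a matrix protease, averaged 6.05 and 7.36 in the same groups, a difference of -1.30 (SE 0.097), and the early response gene IER3 averaged 10.19 and 11.25, a difference of -1.06 (SE 0.092). The gene called higher was SOD2, a mitochondrial superoxide dismutase and a known NF-kB target, which averaged 10.84 with MOTS-c and 10.24 in controls, a difference of 0.59 (SE 0.060). SOD2 was named after its value was seen. Genes so named are given by 1 probe each. Of them, SOD2, TNFRSF10B, IL1RAP, NFKBIB, TRADD and KYNU have further kept probes whose values are not given here. At 4 h, 0 genes of any of these lists were called. From 4 h to 72 h, 13 of the 27 target genes were called higher in MOTS-c cells and 19 in control cells, where 19.9% and 31.9% of all genes were. In each, 3 were called lower, where 18.2% and 30.7% of all genes were. Among 5 chemokine genes, CXCL1, CXCL2, CXCL8 and CCL20 were lower with MOTS-c at 72 h. Their log2 differences lay between -2.87 for CCL20 and -1.97 for CXCL8, which gave -1.84 at its other probe. CXCL3 (detected in 4 of 6 treated and 4 of 6 control samples) differed by -0.02 (SE 0.12).

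**Figure D5:**
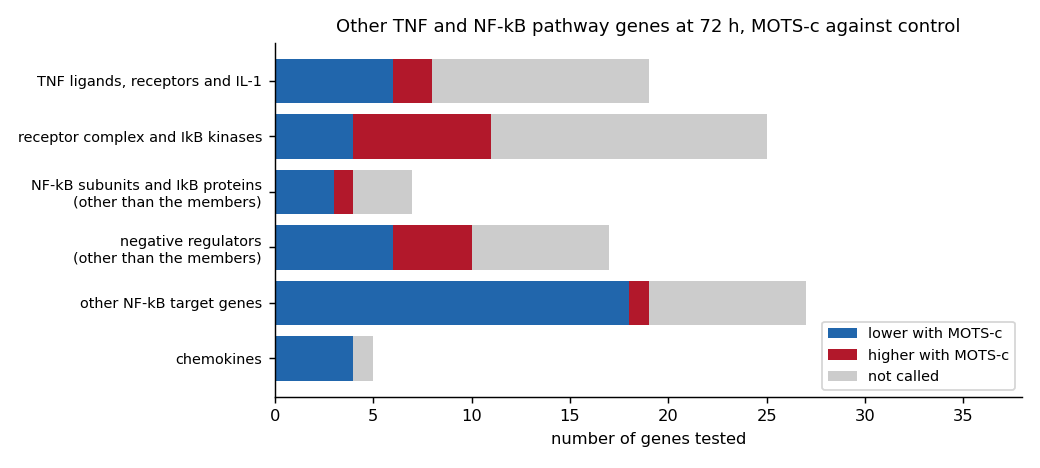
Number of genes tested (x axis) in each of 6 lists of TNF and NF-kB pathway genes at 72 h, divided into genes called lower with MOTS-c (blue), called higher (red) and not called (grey). The other target genes have 18 of 27 called lower, and the receptor complex and kinases have 4 of 25 called lower and 7 called higher. The counts are a description, since the lists were chosen with earlier results known.

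Likeness of pattern was measured over the 24 arrays as the root mean square difference between log2 profiles, each centred on its own mean, among 13274 other genes. The profile closest to that of TNF was the one of CYP2F1, a cytochrome P450 gene, at a root mean square difference of 0.17. It was followed by CXCL10 at 0.23, the carbonic anhydrase gene CA4 at 0.34, CXCL2 at 0.34 and the long non-coding RNA gene HULC at 0.35. CYP2F1, like TNF, was detected on 6 of 6 control arrays at 72 h and on 0 arrays at 4 h. Closest to NFKBIA were RPRML at 0.12, KRTAP20-2 at 0.13, and RAB17, C14orf93 and NDUFAF1 at 0.14 each. RPRML averaged 8.50 with MOTS-c and 9.50 in controls at 72 h, and 8.45 in each 4 h group. KRTAP20-2, of a gene family with near-identical copies, was detected on 6 of 6 arrays of 72 h controls and on 0 of the other 18.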

How the data were processed

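RNA of 24 HEK293 samples was hybridised to Illumina bead arrays and read with GenomeStudio 2011.1, per the submitters' processing notes. The authors deposited non-normalized intensity values per probe, each with its detection p-value, per the file headers. The score per probe in the authors' other deposited table equals, to within 5e-10, the log10 intensity centred and divided by its SD on each array. Intensities were background-corrected from the detection p-values and quantile normalized with limma 3.58.1 (neqc, offset 16) in R 4.3.3, which gives log2 levels. A probe was kept if 6 or more arrays gave it a detection p under 0.05, which left 23931. Of these, 17873 had 1 gene symbol in the platform annotation and 6058 did not. Of all probes, 30113 had 1 symbol, 8 had several and 17202 had none. The probe with the highest mean stood for its gene. All 24 arrays entered 1 limma fit with 20 residual degrees of freedom, p-values were adjusted by Benjamini-Hochberg over 13283 genes, and a gene was called at an adjusted p under 0.05. The fit was checked on simulated data. A fold is a lower bound where a probe was undetected on every array of the dimmer group, set against the lowest signal detected on each array.

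The genes and the pathway lists were chosen with earlier results of these data known. Named genes were all 10 symbols, the 3 with the smallest p at 72 h of each list with any called at 4 h, 5 chemokines, and the 5 profiles closest to TNF and to NFKBIA. Same-numbered treated and control arrays were compared by their deviations from the group means. The correlations ran from -0.15 to 0.16 in the 72 h arrays and from -0.23 to 0.09 in the 4 h arrays, so the numbers were not used as pairs. No array pair held identical values. Array slides were not used here as a block. The number of arrays limits the precision. Alternatives changed the background correction, normalization, detection filter, probe choice, arrays in the fit, array weights, variance prior, replicate term and input values, and left out each array. Plots were drawn with matplotlib 3.10.9 in Python 3.11.15.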

Additional observations from a re-analysis of the deposited data

Results flagged for a closer look

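On NFKB1, 4 h control replicate 3 stood apart at a log2 level of 10.53, with the other 5 controls between 10.37 and 10.41. On NFKB2 (probe ILMN_1799062), replicate 1 of the cells given MOTS-c for 4 h stood apart at 6.84, with the other 5 between 5.96 and 6.22. These were 2 of 44 groups of 6 arrays examined with Dixon's 95% critical value, and chance marks about 1 in 20.

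The effect of MOTS-c differed between 72 h and 4 h for 7 genes, as a description, since it contains the contrast that chose them. The difference between the effects on the log2 scale was -1.28 for IL32, -1.15 for TNFAIP3, -1.09 for NFKBIA, -1.03 for RELB, -0.64 for NFKB2 and 0.28 for NFKBIE. The fitted value for TNF was -2.05, which is no measured size, since TNF was detected on 0 of 12 arrays at 4 h and on 1 of 6 treated arrays at 72 h.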

How the results depend on the processing

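Leaving out each of the 24 arrays in turn gave 7 to 7 called genes of the 9 for MOTS-c at 72 h, 0 to 0 at 4 h, 7 to 7 for the difference between these effects, 7 to 8 for time in control cells and 5 to 6 for time in MOTS-c cells. With a replicate block the counts were 7, 0, 7, 7 and 5 in that order, and it changed no call. With a detection p under 0.01 required on all 24 arrays, only NFKBIA, NFKBIE and NFKB1 could be tested. The counts were 2 at 72 h and 2 for the difference between effects. For time in culture they were 2 in control cells and 1 in MOTS-c cells. The share of all genes called under each of these settings is not given here, so nothing is read from the counts. Of 1536 values of single genes recomputed, 1512 kept their direction and side of the threshold, 7 crossed the threshold and 17 changed sign, all of them on differences that were not called under either setting. At 4 h these were NFKBIA at -0.01 under median scaling, and NFKB2 at 0.03 with array weights and 0.01 with the deposited scores. Leaving out 1 array at a time gave -0.13 to 0.06 for NFKB2 at 4 h and -0.04 to 0.11 for ICAM1 at 4 h. Under median scaling, NFKB1 was at 0.02 for the difference between effects and at -0.06 for time in control cells, and NFKBIE at 0.01 for time in MOTS-c cells, and the causes were not tested. NFKB1 at 72 h was -0.14 under median scaling and was no longer called, and the cause was not tested. NFKB1 over time in MOTS-c cells was called at -0.12 under the strict filter, at -0.12 with no detection filter and at -0.13 with array weights. Without background correction TNF at 72 h was -1.30. Signal near background limits TNF, ICAM1 and the IL32 probe ILMN_1778010.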

Other observations

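Among the 72 h arrays, replicate 6 of the cells given MOTS-c had the lowest level of its group for 6 of the 9 genes and the highest mean intensity of its group, at 582.2. Control replicate 5 had the lowest level for 3 of the 9 genes and the highest mean intensity, at 596.9, and control replicate 2 had the highest level for 4 genes and the lowest mean intensity, at 399.2. Other bright arrays did not follow this. MOTS-c replicate 4, at 553.9, had the lowest level for 0 genes. Control replicate 1, at 487.7, had the highest level for 2 genes and the lowest for 1. The part of array brightness in the spread within groups was not tested.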
